A study of Drosophila melanogaster with 4 samples.

Results

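The anaphase-promoting complex genes are the 9 genes Cdc16, Cdc27, Cdc23, fzy, fzr, shtd, mr, lmg and ida, chosen by name among the 13931 gene rows of the deposited table. Of these, 8 have a row of that exact name, and lmg, listed as a synonym of lmgA in RefSeq, was taken from the lmgA row. The data are small RNA libraries purified with Flag-tagged Piwi from OSC, the ovarian somatic cell line of Drosophila melanogaster, grown at 26 degrees. Piwi is a nuclear Argonaute protein, and the small RNAs it carries, piRNAs, guide it to transposons. In all 4 libraries the cells received an siRNA against Yb, a protein that gathers piRNA precursors in the cytoplasm, together with a plasmid. The plasmid encoded Yb lacking the domain called Hel-C in the group Yb ΔHel-C (2 libraries) and wild-type Yb in the group Yb WT (2 libraries). Both were delivered by nucleofection, so the groups are transfected cultures of 1 line with the endogenous gene still present. The comparison asks how the RNAs on Piwi differ when the rescuing Yb protein lacks this domain.

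The anaphase-promoting complex is a ubiquitin ligase that ends mitosis. It marks mitotic cyclins and securin for destruction by the proteasome, and the loss of securin frees separase to cut the cohesin that holds sister chromatids together. A scaffold holds a catalytic cullin and RING pair, an arm of proteins with tetratricopeptide (TPR) repeats binds an activator, and the activator brings in the substrate. In ovarian somatic cells piRNAs come from transposon-rich clusters and also from the messenger RNAs of many protein-coding genes, mostly from their 3' ends. The values below count Piwi-bound small RNA reads assigned to each gene by the authors, and measure neither messenger RNA nor protein.

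The table gives 1 value per gene and group, in reads per 1000000 reads (RPM), so the spread between replicates is unknown for every difference below. Totals were 2803305 reads in Yb ΔHel-C and 2955141 reads in Yb WT, and 1 read is worth 0.357 RPM in Yb ΔHel-C and 0.338 RPM in Yb WT. Intervals are exact 95% intervals for counting error only. They treat each read as an independent draw, and are too narrow where reads are copies of the same molecule. Calls of 2-fold higher or lower mean a log2 fold, taken on RPM + 0.5, of at least 1 or at most -1. This scale understates the change of genes with few reads. Yb's own gene fs(1)Yb had 645 RPM of reads in Yb ΔHel-C and 406 RPM in Yb WT (ratio 1.59, 1.48 to 1.71), a direction that turned with the TMM and RLE scaling factors of edgeR (log2 folds -0.20 and -0.24). Plasmid and endogenous RNA are not separated in these reads. All 9 follicle cell markers, which include fs(1)Yb, had reads. They summed to 8908 RPM in Yb ΔHel-C and 9776 RPM in Yb WT. Single genes lay from 13.9 to 4481 RPM in Yb ΔHel-C and from 16.9 to 6972 RPM in Yb WT, with tj highest in both. On the deposited values 6 of the 9 had a log2 fold above 0, where 81% of all genes averaging 1 RPM or more did. The sum of the 9 was nevertheless lower in Yb ΔHel-C. The 9 germline markers summed to 49.2 RPM in Yb ΔHel-C and 77.2 RPM in Yb WT. All 9 had reads in at least 1 column. Single germline genes ranged from 0.357 to 15.7 RPM in Yb ΔHel-C and from 0 to 43.0 RPM in Yb WT, which reaches the level of the follicle marker ct (13.9 RPM in Yb ΔHel-C and 16.9 RPM in Yb WT). The germline gene orb had 34 reads in Yb ΔHel-C and 127 in Yb WT, whereas vas had 2 reads in Yb ΔHel-C and 0 in Yb WT.

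Piwi-bound reads on the complex were higher in Yb ΔHel-C on the authors' totals. The 9 genes together held 238 RPM in Yb ΔHel-C and 78.5 RPM in Yb WT, a ratio of 3.04 (interval 2.61 to 3.54), from 668 reads in Yb ΔHel-C and 232 in Yb WT. Of the 8 genes with reads, 6 were called 2-fold higher, namely Cdc16, Cdc23, fzy, shtd, mr and ida, none was called lower, and Cdc27 and fzr were neither. All 8 exceeded 1 RPM in both columns. Among all 7577 genes that averaged 1 RPM or more, 44.9% were called 2-fold higher and 4.98% lower, and among the 3209 of them between 10 and 100 RPM these shares were 54.9% and 1.31%. The complex genes called higher make up 75% of the 8 with reads. The median log2 fold of the 8 genes was 1.65, against 0.89 over all genes kept and 1.09 over those from 10 to 100 RPM. The share of cells with these transcripts, the number of transcripts per cell and the part of them loaded on Piwi cannot be told apart in such values.

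**Figure D1:**
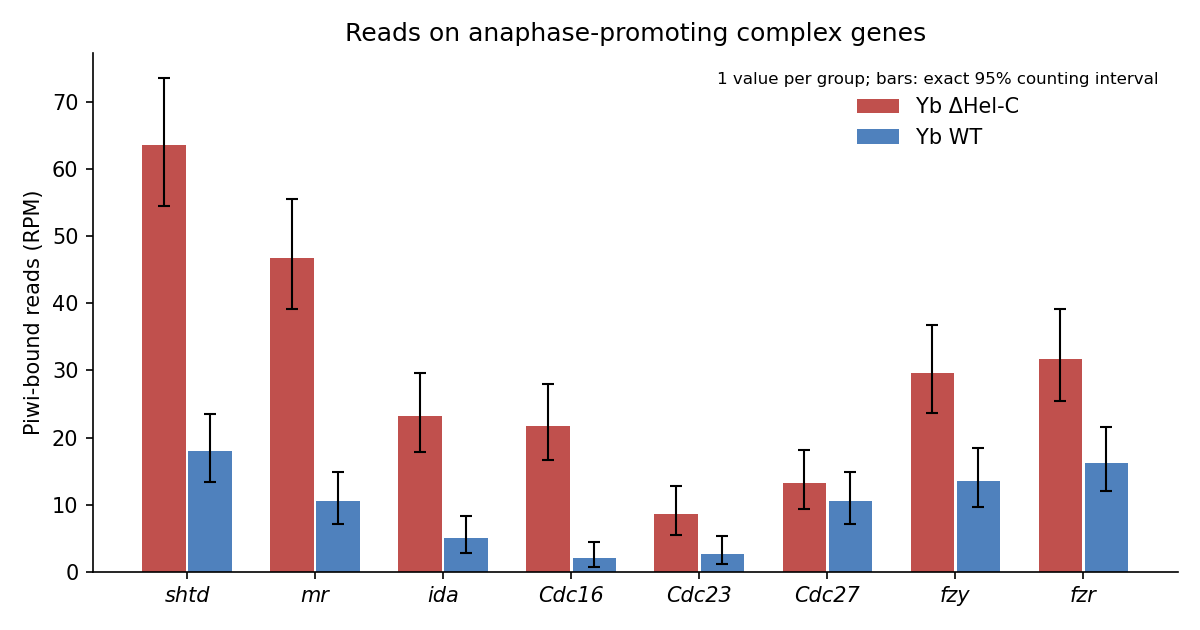
Piwi-bound reads (RPM) on the 8 complex genes with reads, with Yb ΔHel-C left and Yb WT right for each gene, 1 deposited value per bar and exact 95% counting intervals as error bars. The bars of shtd reach 63.5 RPM in Yb ΔHel-C and 17.9 RPM in Yb WT, and the intervals overlap for Cdc27.

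The scaling of the columns decides how large these differences are. Over all genes kept, TMM factors moved the median log2 fold by -0.81, RLE factors by -0.86, and scaling to the reads in gene rows alone by -0.28. The split of calls over all genes moved with it, from 3403 higher and 377 lower (90.0% higher) on the authors' totals to 919 and 1139 (44.7%) with TMM, 820 and 1196 (40.7%) with RLE, and 2430 and 540 (81.8%) on gene reads. With TMM or RLE, 3 of the 8 complex genes remained 2-fold higher, Cdc16, mr and ida, where 12.1% and 10.8% of all genes were called higher and 15% and 15.8% lower. On gene reads 5 were called higher, where 32.1% of all genes were called higher and 7.13% lower. The sign of the fold was positive for 8 of 8 on the authors' totals (81% of all genes, with 19% negative). It was positive for 7 of 8 with TMM (53.7% of all genes, 46.3% negative) and with RLE (51.8% and 48.2%), Cdc27 being the exception. An exact binomial test on the reads, which compares these columns and not the conditions, passed a Benjamini-Hochberg adjusted p of 0.05 for 7 of the 8, all higher and all but Cdc27, where it called 56.3% of all genes higher and 7.43% lower.

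**Figure D2:**
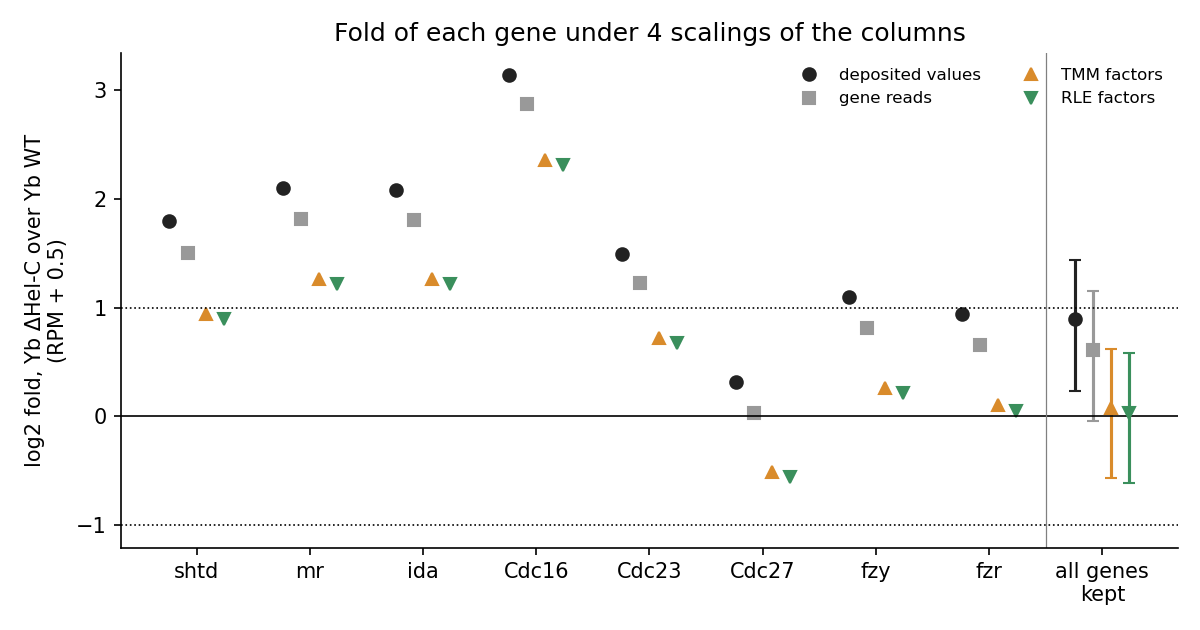
Log2 fold on RPM + 0.5, Yb ΔHel-C over Yb WT, of each complex gene under 4 scalings, with the median and interquartile range over the 7577 genes kept at the right and dotted lines at 2-fold. Cdc16 lies highest under each scaling, from 3.14 on the deposited values to 2.32 with RLE, and Cdc27 drops below 0 with TMM and RLE (-0.51 and -0.56).

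The scaffold gene shtd and the cullin gene mr carried the most reads of the complex in Yb ΔHel-C. The gene shtd encodes APC1, the largest scaffold subunit. It lies on the X chromosome at 15455544 to 15462441 (dm6) and had 63.5 RPM in Yb ΔHel-C (178 reads) and 17.9 RPM in Yb WT (53 reads), a ratio of 3.54 (2.59 to 4.91). Its log2 fold of 1.80 fell under the 2-fold line with TMM (0.95) and RLE (0.90).

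The gene mr, or morula, encodes APC2, the cullin-like subunit that holds the RING protein (2R, 23972431 to 23975408). Its level was 46.7 RPM in Yb ΔHel-C (131 reads) and 10.5 RPM in Yb WT (31 reads), a ratio of 4.45 (2.99 to 6.82). The gene ida encodes APC5, a scaffold subunit (3L, 3905344 to 3907813), and had 23.2 RPM in Yb ΔHel-C (65 reads) and 5.08 RPM in Yb WT (15 reads), a ratio of 4.57 (2.58 to 8.62). Both stayed past 2-fold in each scaling tried, with log2 folds from 1.21 to 2.10 for mr and from 1.22 to 2.09 for ida. In fold, mr lay above 94.1% and ida above 93.8% of the 7577 genes kept.

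The 3 TPR genes, whose proteins build the arm that binds activators, differed most among themselves. Cdc16 encodes APC6 (3R, 23281201 to 23284123) and had 21.8 RPM in Yb ΔHel-C (61 reads) but 2.03 RPM in Yb WT (6 reads), a ratio of 10.7 (4.65 to 30.3). Only 31 of the 7577 genes had a higher log2 fold than its 3.14, and the 6 reads in Yb WT set the width of its interval. Cdc23 encodes APC8 (2L, 20459342 to 20461729) and had the lowest mean of the genes with reads, 8.56 RPM in Yb ΔHel-C (24 reads) and 2.71 RPM in Yb WT (8 reads), a ratio of 3.16 (1.37 to 8.14).

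Cdc27 encodes APC3, the TPR subunit that the activators dock on (3L, 7245481 to 7249340). It had 13.2 RPM in Yb ΔHel-C (37 reads) and 10.5 RPM in Yb WT (31 reads). The ratio of 1.26 had an interval of 0.760 to 2.10, which includes no change. Cdc27 and mr had 37 and 131 reads in Yb ΔHel-C, and 31 reads each in Yb WT.

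The 2 activators bring substrates to the complex at different times of the cycle, fzy (Cdc20) in mitosis and fzr (Cdh1) from late mitosis into G1. The gene fzy (2L, 16310956 to 16313097) had 29.6 RPM in Yb ΔHel-C (83 reads) and 13.5 RPM in Yb WT (40 reads), a ratio of 2.19 (1.48 to 3.27). The gene fzr (X, 4667290 to 4679537) had 31.7 RPM in Yb ΔHel-C (89 reads) and 16.2 RPM in Yb WT (48 reads), a ratio of 1.95 (1.36 to 2.84). With TMM their log2 folds were 0.26 and 0.10, and with RLE 0.21 and 0.053. On the authors' totals they exceeded the median log2 fold of all genes kept by 0.21 and 0.053. Among the 3209 genes from 10 to 100 RPM, where both lie, the median was 1.09. There fzy (1.10) lay above 50.6% and fzr (0.95) above 41.8% of the genes.

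The RING subunit APC11, which receives the ubiquitin-loaded E2 enzyme, is encoded by lmgA (2L, 8524999 to 8528618). Its row was listed at 0 in both columns. A count of 0 allows up to 1.07 RPM in Yb ΔHel-C and 1.02 RPM in Yb WT, if reads on the row were counted. The annotation gives lmgB the same start and end as lmgA, and lmgB was listed at 0 in both columns as well. The sources used here do not say how reads on coinciding genes were counted, so no level of lmg can be given.

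Within the complex the reads moved unequally, and this does not depend on how the columns are scaled. For each gene the odds of its reads against those of the other complex genes were compared between the columns. Cdc16 had an odds ratio of 3.78 in Yb ΔHel-C over Yb WT (exact interval 1.61 to 10.9), and mr of 1.58 (1.02 to 2.50). Cdc27 had 0.381 (0.223 to 0.652) and fzr 0.590 (0.394 to 0.890). The intervals of ida (1.56, 0.857 to 3.01), shtd (1.23, 0.854 to 1.78), Cdc23 (1.04, 0.445 to 2.73) and fzy (0.681, 0.445 to 1.06) include 1. In shares of the complex's reads, Cdc16 made up 9.13% in Yb ΔHel-C and 2.59% in Yb WT, whereas Cdc27 made up 5.54% in Yb ΔHel-C and 13.4% in Yb WT.

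**Figure D3:**
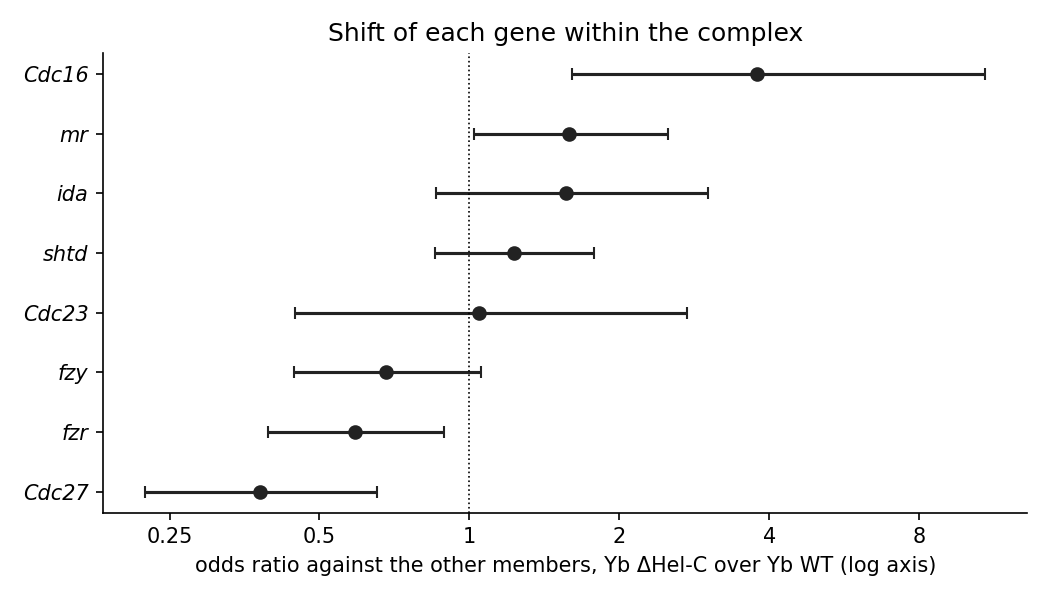
Odds ratio of the reads of each gene against the other complex genes, Yb ΔHel-C over Yb WT, on a log axis, with exact 95% intervals for counting error. Intervals of Cdc16 and mr lie above 1 and those of Cdc27 and fzr below 1.

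Grouped by role, the 7 subunits summed to 177 RPM in Yb ΔHel-C and 48.7 RPM in Yb WT (ratio 3.63, 3.01 to 4.40), and the 2 activators to 61.4 RPM in Yb ΔHel-C and 29.8 RPM in Yb WT (2.06, 1.58 to 2.70). The conditional ratio of these ratios was 1.76 (1.27 to 2.45). The scaffold and cullin genes shtd, ida and mr summed to 133 RPM in Yb ΔHel-C and 33.5 RPM in Yb WT (3.98, 3.18 to 5.02). The TPR genes summed to 43.5 RPM in Yb ΔHel-C and 15.2 RPM in Yb WT (2.86, 2.02 to 4.12). For scaffold and cullin against TPR genes the ratio of ratios was 1.39, with an interval of 0.903 to 2.13 that includes 1. Within the TPR arm it was 8.38 for Cdc16 against Cdc27 (3.07 to 27.0) and 3.34 for Cdc16 against Cdc23 (0.909 to 13.0). Between the activators, fzr against fzy gave 0.894 (0.516 to 1.54). These groupings and pairs were chosen with the values known, and the intervals speak of these columns alone.

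Levels were compared between genes per 1000 bases of locus, introns included. In Yb ΔHel-C the order was mr (15.7 RPM per kb), fzy (13.8), ida (9.39), shtd (9.21), Cdc16 (7.44), Cdc23 (3.59), Cdc27 (3.42) and fzr (2.59 RPM per kb). In Yb WT it was fzy (6.32 RPM per kb), mr (3.52), Cdc27 (2.72), shtd (2.60), ida (2.06), fzr (1.33), Cdc23 (1.13) and Cdc16 (0.695 RPM per kb). Neighbours in either order had overlapping counting intervals, except Cdc16 and Cdc23 in Yb ΔHel-C. Cdc16 was thus in place 5 of 8 in Yb ΔHel-C and last in Yb WT, and Cdc27 in place 7 in Yb ΔHel-C and place 3 in Yb WT. The long introns of a locus such as fzr, which spans 12248 bases, lower its value on this scale. Their RPM in Yb ΔHel-C exceeded that of 62.6% (Cdc23) to 84.5% (shtd) of all gene rows, and in Yb WT that of 53.6% (Cdc16) to 78.9% (shtd).

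Loci of 5 of the 9 genes overlap another gene, lmgA with 0 reads among them. Of the 8 genes with reads, 4 overlap no other gene. Over the 7544 genes kept that have a position, 51.6% overlap another gene. Some genes compared below also overlap another gene, among them vih, CycA, thr, Sse, Bub3, Mps1 and Cul1. Others, such as APC4, BubR1 and Nipped-B, do not. Reads in an overlap are uncertain because no source used here states the strand setting. Cdc16 shares 122 bases, 4.17% of its locus, with CG6763, which had 23.5 RPM in Yb ΔHel-C (66 reads) and 1.35 RPM in Yb WT (4 reads), a ratio of 17.4 (6.48 to 65.7). Cdc23 shares 145 bases with CG2493, which had 12.5 RPM in Yb ΔHel-C and 4.06 RPM in Yb WT (ratio 3.07, 1.56 to 6.51, beside 3.16 for Cdc23).

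The gene fzy shares 62 bases with cact, the inhibitor of the fly NF-kappaB protein Dorsal, which had 296 RPM in Yb ΔHel-C and 83.2 RPM in Yb WT (ratio 3.56, 3.08 to 4.12). The gene shtd shares 8 bases with CG11655 (17.8 RPM in Yb ΔHel-C and 3.72 RPM in Yb WT, ratio 4.79, 2.46 to 10.2). Besides lmgB, lmgA shares 742 bases with Acer (8.92 RPM in Yb ΔHel-C and 1.35 RPM in Yb WT, ratio 6.59, 2.28 to 26.0). Each overlapping gene with reads was thus higher in Yb ΔHel-C, also with TMM and RLE. Of all genes kept, 81% were above 0 on the deposited values, 53.7% with TMM and 51.8% with RLE. The part of shared reads in the values of the complex genes was not tested. The 4 genes with no overlapping locus, Cdc27, fzr, mr and ida, summed to 115 RPM in Yb ΔHel-C and 42.3 RPM in Yb WT (ratio 2.72, 2.20 to 3.37). Of these 4, 2 were called 2-fold higher, mr and ida, against 44.9% of all genes kept and 54.9% of those from 10 to 100 RPM.

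The genes nearest to Cdc16 in the plane of the log2(RPM + 0.5) values of the 2 columns were CG12822, with 26.0 RPM in Yb ΔHel-C and 2.37 RPM in Yb WT (distance 0.31), and Pgam5, a mitochondrial phosphatase gene, with 18.2 RPM in Yb ΔHel-C and 1.69 RPM in Yb WT (distance 0.33). Nearest to Cdc27 were CG31145, with 12.8 RPM in Yb ΔHel-C and 10.5 RPM in Yb WT (distance 0.038), and CG42817, with 12.8 RPM in Yb ΔHel-C and 10.2 RPM in Yb WT (distance 0.059). With 2 columns such likeness says only that the levels were close.

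Genes that work with the complex were set beside it by textbook role. The counts of each list below stand beside the shares over all genes kept, 44.9% higher and 4.98% lower on the authors' totals. With TMM these shares were 12.1% and 15%, and with RLE 10.8% and 15.8%. Of 5 other subunits and activators, the 3 that averaged 1 RPM or more were all called 2-fold higher. The scaffold gene APC4 had 61.4 RPM in Yb ΔHel-C (172 reads) and 19.6 RPM in Yb WT (58 reads), a ratio of 3.13 (2.31 to 4.29). The activator gene cort, known for its role in female meiosis, had 23.9 RPM in Yb ΔHel-C and 11.5 RPM in Yb WT (2.08, 1.36 to 3.24). APC10, which helps to recognise substrates, had 8 reads in Yb ΔHel-C and 0 in Yb WT. The lower end of the exact interval of its ratio was 1.80. Against a floor of 3 reads in Yb WT its ratio was 2.81, which ignores counting error in the 8 reads. The median log2 fold of the 3 genes was 1.62, or 1.49 with APC10 at the ratio of 2.81. APC7 (5 reads in Yb ΔHel-C and 0 in Yb WT) and fzr2 (2 reads in Yb ΔHel-C and 0 in Yb WT) lay below the mean of 1 RPM.

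Among the E2 enzymes and the inhibitor, 2 of 3 were called higher. The gene vih, which encodes the E2 that starts ubiquitin chains for the complex, had more reads than the 9 complex genes together, 279 RPM in Yb ΔHel-C and 284 RPM in Yb WT (ratio 0.983, 0.890 to 1.08). Its log2 folds were -0.89 with TMM and -0.94 with RLE. CG8188, the Ube2S-type E2 that lengthens chains, had 54.9 RPM in Yb ΔHel-C and 22.0 RPM in Yb WT (2.50, 1.86 to 3.39). The inhibitor gene Rca1, named after its values were seen, had 28 reads in Yb ΔHel-C and 7 in Yb WT (4.22, 1.80 to 11.4).

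Of 11 substrates and separase genes, 8 were called 2-fold higher and 3 in neither direction, and the median log2 fold was 1.48. The separase genes led among those that averaged 10 RPM or more. The gene thr, whose protein is the regulatory partner of separase, had 49.6 RPM in Yb ΔHel-C and 13.5 RPM in Yb WT (3.66, 2.56 to 5.35), and Sse, separase itself, 17.1 RPM in Yb ΔHel-C and 4.74 RPM in Yb WT (3.61, 1.96 to 7.10). The lowest were the Cdc25 phosphatase gene stg, with 392 RPM in Yb ΔHel-C and 268 RPM in Yb WT (1.46, 1.34 to 1.61), and CycA, with 423 RPM in Yb ΔHel-C and 233 RPM in Yb WT (1.82, 1.65 to 2.00). With TMM and RLE stg turned below 0 (log2 folds -0.31 and -0.36), as did CycA by little (-0.00085 and -0.050).

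Of 9 spindle checkpoint genes, which hold the complex back until every kinetochore is attached, 8 were called 2-fold higher and 1 in neither direction, and the median log2 fold was 1.75. Bub3 had 31.0 RPM in Yb ΔHel-C and 8.46 RPM in Yb WT (3.67, 2.33 to 5.98), and BubR1 43.9 RPM in Yb ΔHel-C and 12.2 RPM in Yb WT (3.60, 2.47 to 5.38). Bub1 was at 78.8 RPM in Yb ΔHel-C and 35.2 RPM in Yb WT (2.24, 1.77 to 2.86). The kinase gene Mps1, not called, had 20.7 RPM in Yb ΔHel-C and 11.5 RPM in Yb WT (1.80, 1.16 to 2.83), and turned slightly below 0 with TMM (-0.017) and RLE (-0.064). With TMM or RLE only 1 of the 9 remained past 2-fold, where 12.1% or 10.8% of all genes kept were called higher. The median of the 9 was then 0.93 or 0.88.

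Of 9 measured cohesin genes, 5 were called higher and 4 in neither direction, around a median of 1.33. The release factor gene wapl had 99.5 RPM in Yb ΔHel-C and 30.1 RPM in Yb WT (3.30, 2.59 to 4.24), and the core subunit gene SMC1 20.7 RPM in Yb ΔHel-C and 6.43 RPM in Yb WT (3.22, 1.89 to 5.72). With TMM and with RLE none of the 9 was called higher and 1 was called lower, with medians of 0.47 and 0.42. The kleisin gene vtd, whose protein separase cuts, had 139 RPM in Yb ΔHel-C and 112 RPM in Yb WT (1.25, 1.08 to 1.45) and turned negative with TMM (-0.54) and RLE (-0.59). The loader gene Nipped-B, at 460 RPM in Yb ΔHel-C and 726 RPM in Yb WT, had a ratio of 0.634 (0.591 to 0.680), past 2-fold lower with TMM (log2 fold -1.52) and RLE (-1.57).

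The SCF ligase, a second cullin and RING ligase of the cell cycle, served for comparison. Of its 7 genes kept, 5 were called higher and 2 in neither direction, around a median of 1.19. Nedd8, the modifier of cullins, had 25.3 RPM in Yb ΔHel-C and 5.41 RPM in Yb WT (4.68, 2.69 to 8.62). Cul1, its cullin, stood at 1782 RPM in Yb ΔHel-C and 601 RPM in Yb WT (2.96, 2.81 to 3.13). The F-box genes ago, with 828 RPM in Yb ΔHel-C and 885 RPM in Yb WT (0.936, 0.885 to 0.990), and slmb, with 294 RPM in Yb ΔHel-C and 295 RPM in Yb WT (0.996, 0.905 to 1.10), had ratios near 1. With TMM their log2 folds were -0.96 and -0.87, and ago passed 2-fold lower with RLE (-1.01).

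Over these 6 lists 31 of 42 genes kept were called 2-fold higher and none lower, against the 44.9% and 4.98% of all genes given above, and with TMM 6 were higher and 1 lower, where the shares were 12.1% and 15%. The 6 were 2 of the substrates and separase genes and 1 each of the other subunits and activators, the E2 enzymes and inhibitor, the spindle checkpoint and the SCF ligase. Follicle and germline markers had lower medians. Of 9 follicle markers 3 were called higher and 1 lower, with a median of 0.42 that turned negative with TMM (-0.45) and RLE (-0.49). Its highest genes were Egfr (log2 fold 1.85) and piwi (1.19), and its lowest SoYb (-1.01) and tj (-0.64). Of 7 germline markers kept, none was called higher and 2 were called lower, with a median of 0.12 that turned negative in the same way (-0.70 and -0.75) and on gene reads (-0.16). Those called lower were orb, with 12.1 RPM in Yb ΔHel-C and 43.0 RPM in Yb WT, and aub, with 4.99 RPM in Yb ΔHel-C and 10.8 RPM in Yb WT. The other germline genes that averaged 10 RPM or more were Rbp9, with 15.7 RPM in Yb ΔHel-C and 9.14 RPM in Yb WT, and bgcn, with 10.7 RPM in Yb ΔHel-C and 9.81 RPM in Yb WT. All libraries came from cultures of 1 somatic cell line, and what the marker reads mean for the values of the complex was not tested.

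**Figure D4:**
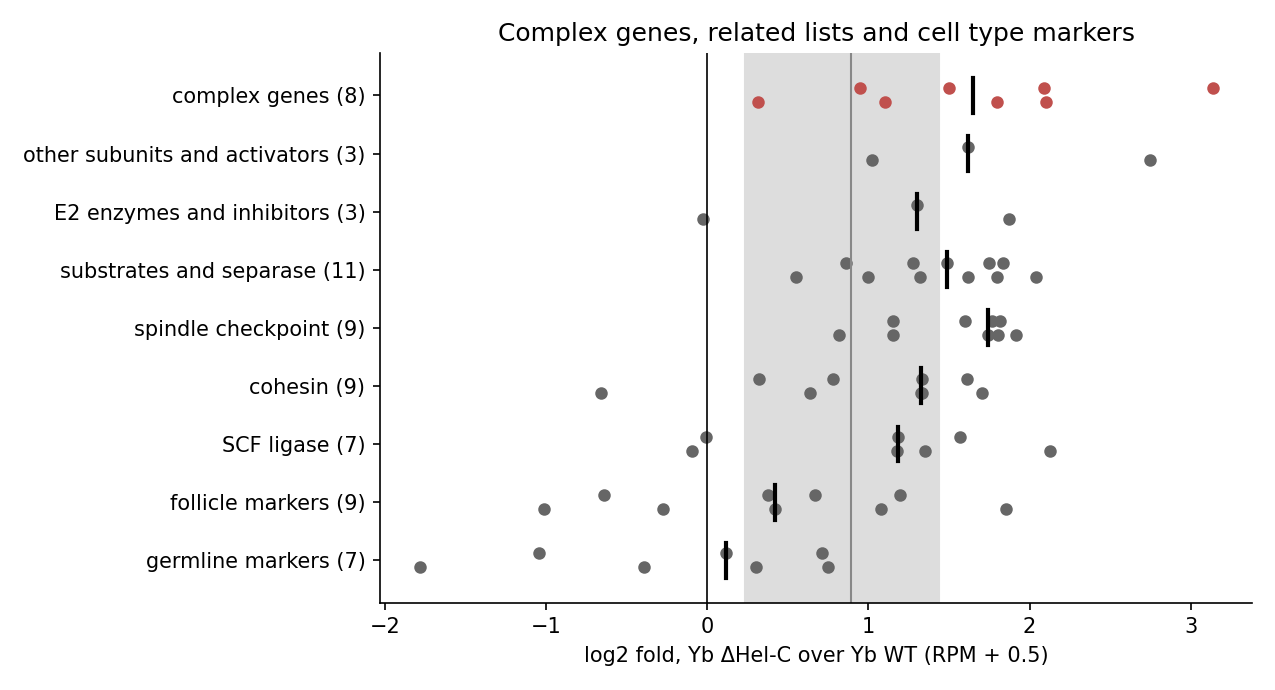
Log2 fold on RPM + 0.5, Yb ΔHel-C over Yb WT, of the complex genes, related lists and cell type markers on the deposited values, with 1 point per gene kept, the number of genes in brackets and a black bar at each median. The grey band and line give the interquartile range (0.24 to 1.44) and median (0.89) of the 7577 genes kept; the complex and the spindle checkpoint have medians of 1.65 and 1.75, and the point of APC10 depends on the 0.5 added.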

How the data were processed

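The deposited table holds RPM values made by the authors, as judged from the values, since its header names no unit. The submitters' processing notes list STAR and HTSeq as tools and BDGP6 and dm6 as builds, without roles or versions, and RNA of 23 to 30 nucleotides was cloned, per the labels' protocols. The sources used here state neither the strand setting, the treatment of multiply mapped reads nor whether the 2 libraries of a group were pooled, and 0 further value columns were present. Every value above 0 (100% in both columns, tolerance 0.01 read) was a whole multiple of 1 step, which gave read counts. With 1 column per group no model with replicates could be fitted.

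Ratios carry conditional Clopper-Pearson 95% intervals from these reads (Python 3.11.15, scipy 1.17.1), and odds ratios are conditional exact estimates. Genes averaging 1 RPM or more over both columns were kept, and log2 folds use a pseudocount of 0.5 RPM. TMM and RLE factors came from edgeR 4.0.16 on gene rows. An exact two-sided binomial test of each gene's reads, adjusted by Benjamini-Hochberg over all 7577 genes, was run as an alternative and compares the columns only. It called 4265 genes higher (56.3%) and 563 lower (7.43%), and 7 of the 8 complex genes with reads. Intervals and calls were tested on simulated counts that vary by counting error alone, which cannot show how they hold under spread between replicates. The members and lists were chosen with earlier results of these data known. Named were all members, the genes overlapping them, the 2 highest and 2 lowest of each list among genes averaging 10 RPM or more, and the 2 genes nearest in level to the members of highest and lowest fold. Outside this rule fs(1)Yb was named as the targeted gene, and APC10, APC7, fzr2, Rca1, ct, vas and aub after their values were seen. Positions and synonyms are those of RefSeq for Release 6, the build dm6. The gene named dalmatian had no matching row and was not analysed here.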

Additional observations from a re-analysis of the deposited data

How the results depend on the processing

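The log2 fold of the summed complex genes, 1.60 on the authors' totals, was 0.74 with TMM, 0.69 with RLE and 1.30 on gene reads. Its ratio, 3.04, was 2.83 without Cdc16 and 2.72 over the genes with no overlapping locus, choices made after seeing the data. Of the 8 complex genes with reads, 6 were called 2-fold higher on the authors' totals (44.9% of all genes kept). With TMM 3 of the 8 were called higher (12.1% of all genes kept), and with RLE 3 (10.8%). A 3-fold threshold called 4 of the 8 higher, where it called 1440 of all 7577 genes kept. Of the 4 complex genes with no overlapping locus, 2 were called 2-fold higher on the authors' totals. Cdc27 turned to -0.51 with TMM and -0.56 with RLE. TMM gave 919 genes higher and 1139 lower over all genes and 6 and 1 over the lists; RLE gave 820 and 1196, and 6 and 2. All genes lower numbered 230 with a pseudocount of 2 RPM and 743 with no filter. At a mean of at least 10 RPM 2158 genes were higher and 106 lower. A 3-fold threshold gave 1440 and 166 genes and 17 list genes higher, and the binomial test on reads called 2 list genes lower. TMM and RLE take most genes as unchanged by construction. No paired analysis was possible because the table has 1 column per group, and leaving out a replicate was not run for the same reason. Depth limits Cdc16, Cdc23 and ida most, with 6, 8 and 15 reads in Yb WT.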

Other observations

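The nearest gene that does not overlap each complex gene was read beside it, a choice made after the values were seen. Next to Cdc16, at a gap of 344 bases, lies orb, a germline RNA-binding protein gene, which had 12.1 RPM in Yb ΔHel-C (34 reads) and 43.0 RPM in Yb WT (127 reads), a ratio of 0.282 (0.187 to 0.415). It stands on the other side of Cdc16 from CG6763, so a gene with fewer reads in Yb ΔHel-C adjoins 2 genes with many more. At a gap of 190 bases from mr, PPP1R15 had 40.3 RPM in Yb ΔHel-C and 31.1 RPM in Yb WT (1.29, 0.975 to 1.72), against 4.45 for mr. At a gap of 38 bases from ida, mge had 56.4 RPM in Yb ΔHel-C and 24.7 RPM in Yb WT (2.28, 1.72 to 3.05), against 4.57 for ida. Beside fzr, Pp2C1 had 64.2 RPM in Yb ΔHel-C and 36.2 RPM in Yb WT (1.77, 1.39 to 2.27), close to the 1.95 of fzr. Beside fzy, cni had 26.0 RPM in Yb ΔHel-C and 15.9 RPM in Yb WT (1.64, 1.12 to 2.42), against 2.19 for fzy. Beside lmgA, CG17834 had 31 reads in Yb ΔHel-C and 22 in Yb WT (1.49, 0.833 to 2.69). CG18858 beside Cdc23 had 1 read in Yb ΔHel-C and 0 in Yb WT, and CG6294 beside shtd 0 in Yb ΔHel-C and 1 in Yb WT. Beside Cdc27, mei-P22 had 14 reads in Yb ΔHel-C and 11 in Yb WT (1.34, 0.566 to 3.27).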
